A study of Mus musculus with 4 samples.

Results

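The genes of G2 and mitosis were read out in RNA from mouse cells sorted by fluorescence from the otocyst, the closed epithelial vesicle from which the inner ear forms. The members are 30 genes taken by symbol for their roles in late cell cycle progression, by a rule that uses no value of these libraries. All 30 were found once among 52636 Ensembl identifiers, and all 30 stood among the 16557 genes tested. The study compared 2 libraries labelled Brg1cKO, from otocysts with a conditional knockout (cKO) of the chromatin remodeler Brg1, with 2 libraries labelled Control, and each library was made from 3000 cells labelled as otic ectoderm. The labels give neither the Cre driver, the age of the embryos, the sorting marker nor whether the replicates came from separate litters or sorts. The p-values therefore cover just the variation among these 4 libraries, part of which could be technical, and no other allele or agent is named for either group. In bulk RNA, fewer cells of a type and less RNA per cell cannot be told apart.

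Progress from G2 into mitosis is driven by the kinase Cdk1 with its cyclins, and the genes of this stage are switched on together late in each cycle and kept off in resting cells. Their products build the spindle, join chromosomes to it, check that attachment, and then split the cell. Because they are made mainly by dividing cells, their transcripts are widely used as a measure of how much of a cell population is cycling. The otocyst is a growing epithelium in which such cells are common, and neuroblasts that leave it keep dividing for a time.

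None of the 30 genes passed the test, and 20 of them had overlapping levels in the groups. Over all genes tested, 9252 of 16557 overlapped in the same way. Summed over the members, the level was 5034 and 4704 CPM in Brg1cKO replicates 1 and 2, against 4414 and 4639 CPM in Control replicates 1 and 2. CPM here are read counts put on a common library total after TMM scaling, which sets the bulk of genes level between libraries. The sum averaged 4868 ± 233 CPM in Brg1cKO and 4527 ± 159 CPM in Control (SD, n = 2 each). Both Brg1cKO sums lay above both Control sums, and the nearest pair differed by less than the replicates of either group did. As a share of gene reads, the members took 0.502% and 0.471% in Brg1cKO libraries and 0.442% and 0.457% in Control libraries. By edgeR's quasi-likelihood test with Benjamini-Hochberg adjustment over all genes, 0 of 30 members were called at an adjusted p under 0.05, where 0.0302% of all genes tested were called (0.0121% higher and 0.0181% lower in Brg1cKO). At an unadjusted p under 0.05, 1 member was higher and 0 were lower, where 7.66% of all genes were higher and 4.8% lower. DESeq2 called 1 member, where it called 14.6% of all genes, and limma voom called 0. Of the log2 fold changes of Brg1cKO over Control, 22 were positive and 8 negative, where 51.5% of all genes tested were positive and 48.5% negative. With RLE scaling the split was 20 to 10. The median was 0.12 over the members and 0.03 over all genes tested. The members' median lay below that of all genes with no low-count filter (0.12 against 0.208), without Control replicate 1 (0.04 against 0.288) and without Control replicate 2 (0.09 against 0.285), so it has no fixed place relative to all genes.

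**Figure D1:**
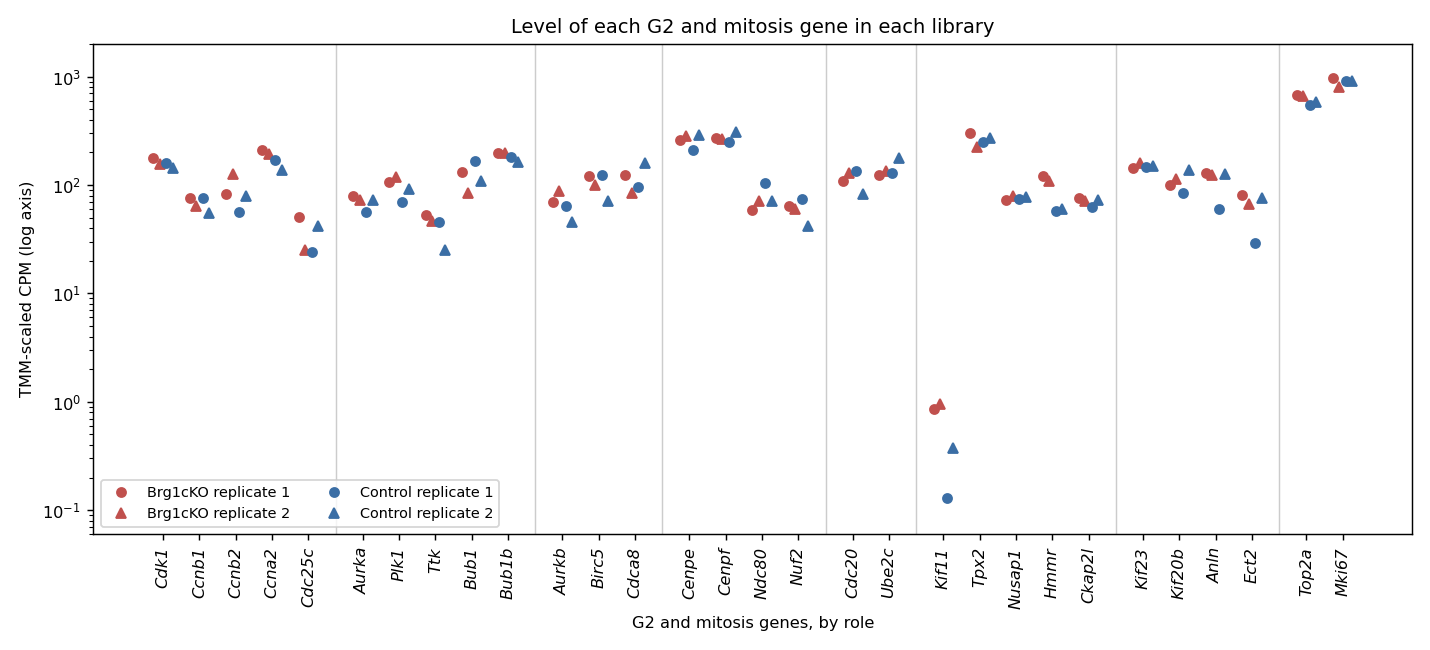
TMM-scaled CPM on a log axis (vertical) of each of the 30 G2 and mitosis genes (horizontal, grouped by role, grey lines between roles) in the 4 libraries, with Brg1cKO in red and Control in blue. Mki67 and Top2a lie above 500 CPM, Kif11 lies under 1 CPM, and the other genes lie between 24 and 310 CPM in all libraries.

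The libraries differed in depth and in what else they held. Gene reads numbered 29361382 and 25875555 in the Brg1cKO libraries and 15357265 and 19132360 in the Control libraries, and the members took 121952 to 147379 reads in Brg1cKO and 67950 to 87440 reads in Control. Every member had at least 2 reads in every library, and all but Kif11 had at least 373, so counting error alone was small for them. Smarca4, the gene for Brg1, stood at 891 and 848 CPM in Brg1cKO and 816 and 815 CPM in Control. The log2 fold change was 0.09 (adjusted p = 0.817, edgeR). The labels do not say which exons the allele removes and the count covers the whole gene, so this level does not check the labels. Otic epithelium markers summed to 281 and 272 CPM in Brg1cKO and 1465 and 1672 CPM in Control. All 10 genes were negative and 1 was called, where 0.0181% of all genes tested were called lower. It was Oc90, the main otoconial matrix gene, at 44.6 and 49.1 CPM against 782 and 732 CPM in Control. Fbxo2 in this list was at 0 in Brg1cKO replicate 2 and Control replicate 2, and Pax8 was under 5 CPM in all 4 libraries. Sox2, outside this list and named after its values were seen, went the other way without passing (adjusted p = 0.511, edgeR). It had 30.1 and 33.6 CPM in Brg1cKO and 12.1 and 16.7 CPM in Control.

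A sequence feature that many of these genes share lies in their promoters, and 7 promoters are shown as examples. The cell cycle genes homology region, searched here only in the form TTTGAA, is bound by the MuvB complex. This complex joins the DREAM repressor in resting cells and B-Myb and FoxM1 when the genes are active. CCAAT boxes are bound by NF-Y and are often found upstream of it in such genes. The windows run from 130 bases before to 20 bases after the RefSeq gene start on GRCm38.p6, the same build as mm10, each 5′ to 3′ on the strand of its gene, all of them on the minus strand. Capitals mark TTTGAA and CCAAT on either strand, so that TTCAAA and ATTGG are the same motifs read on the opposite strand. The positions are chr11:40733418-40733567 for Hmmr, chr9:70421535-70421684 for Ccnb2, chr13:100786467-100786616 for Ccnb1, chr10:69352893-69353042 for Cdk1, chr4:118437324-118437473 for Cdc20, chr9:61946780-61946929 for Kif23 and chr11:99024170-99024319 for Top2a.
Hmmr: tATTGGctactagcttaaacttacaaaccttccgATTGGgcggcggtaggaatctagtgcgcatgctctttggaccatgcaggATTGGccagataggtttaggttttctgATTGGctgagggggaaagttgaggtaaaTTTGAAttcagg
Ccnb2: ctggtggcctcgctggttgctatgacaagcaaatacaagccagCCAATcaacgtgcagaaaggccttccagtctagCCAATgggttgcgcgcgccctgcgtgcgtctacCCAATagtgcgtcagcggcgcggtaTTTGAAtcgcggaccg
Ccnb1: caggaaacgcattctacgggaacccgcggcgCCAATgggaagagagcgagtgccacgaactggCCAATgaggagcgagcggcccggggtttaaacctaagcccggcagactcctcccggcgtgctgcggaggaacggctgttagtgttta
Cdk1: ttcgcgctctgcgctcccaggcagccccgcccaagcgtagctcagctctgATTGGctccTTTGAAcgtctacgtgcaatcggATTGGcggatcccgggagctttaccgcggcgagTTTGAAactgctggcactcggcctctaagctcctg
Cdc20: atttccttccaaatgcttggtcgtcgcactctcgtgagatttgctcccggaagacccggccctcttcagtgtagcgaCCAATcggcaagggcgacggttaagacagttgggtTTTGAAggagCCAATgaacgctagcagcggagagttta
Kif23: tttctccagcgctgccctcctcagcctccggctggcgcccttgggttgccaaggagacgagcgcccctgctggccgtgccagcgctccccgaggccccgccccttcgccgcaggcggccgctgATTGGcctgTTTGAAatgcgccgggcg
Top2a: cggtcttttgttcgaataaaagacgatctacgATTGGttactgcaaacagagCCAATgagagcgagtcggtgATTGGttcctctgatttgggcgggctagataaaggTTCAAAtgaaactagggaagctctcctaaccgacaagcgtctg

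The Hmmr and Ccnb2 windows hold 1 TTTGAA each, with 4 and 3 CCAAT boxes, while the Ccnb1 window holds 2 CCAAT boxes and no TTTGAA. Cdk1 has 2 of TTTGAA and 2 of CCAAT. Promoters of 250 bases before to 50 bases after the start were found in the RefSeq table for 26 of the 30 members, Ect2 with a pair of starts, which gave 27 promoters. TTTGAA on either strand was present in 21 of these 27, and in 17.9% of all 32851 promoters in the table. Within 50 bases of the start it was present in 20 of 27, and in 4.94% of all promoters. CCAAT on either strand was present in 21 of 27 and in 37.4% of all, and 16 of 27 held at least 2 copies, as 11.7% of all did. Among 26 promoters of the S phase list described below, 3 held TTTGAA and 16 held CCAAT. Matches of each motif were counted on their own, also where they share an end base, and a match describes the letters only and not a binding site. Other forms of the homology region were not searched, so a promoter without TTTGAA is not shown to lack the region. The 20 members with TTTGAA had a median log2 fold change of 0.16 (range -0.44 to 1.83). The upper end is Kif11, which had 2 to 25 reads in each library, and the next value is Hmmr at 0.96. The 6 with a promoter but no match (Birc5, Bub1, Ccnb1, Cenpe, Nuf2 and Nusap1) had a median of 0.10 (range -0.34 to 0.18). The 4 without a promoter found (Aurkb, Ccna2, Cdc25c and Tpx2) had a median of 0.29 (range 0.02 to 0.53).

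**Figure D2:**
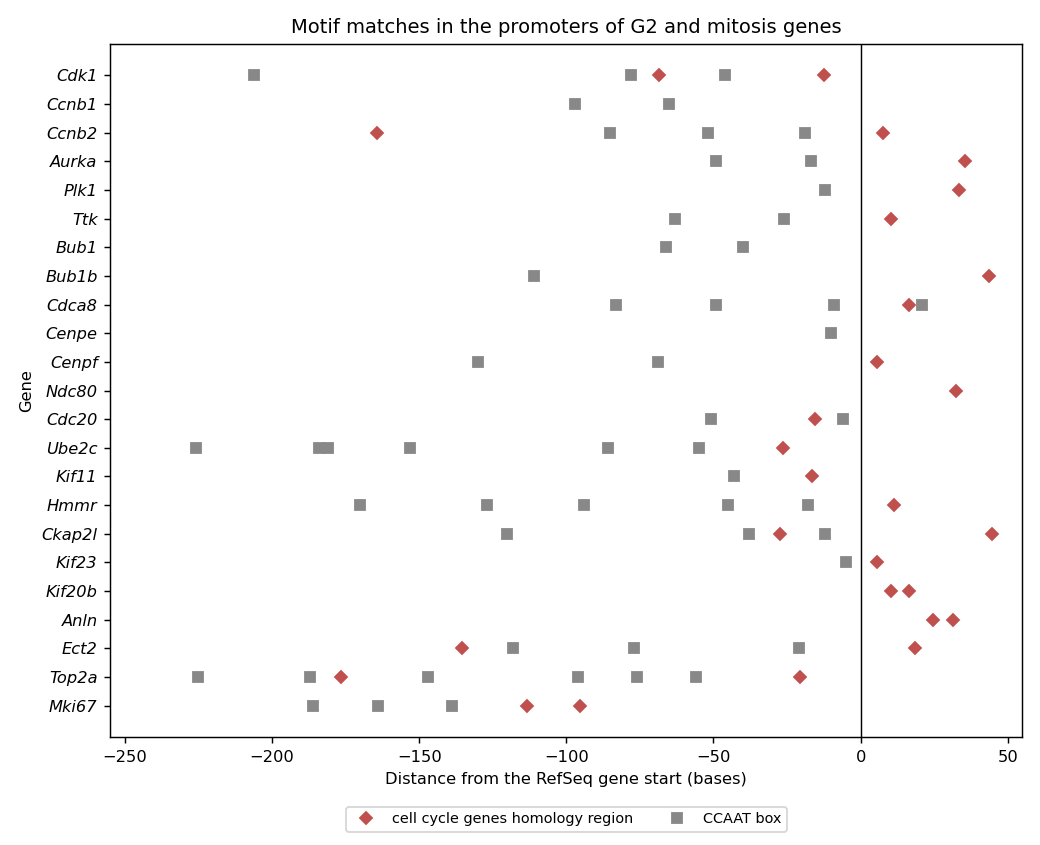
Distance in bases from the RefSeq gene start (horizontal) of each motif match in the promoters of members with at least 1 match (vertical), with 1 start drawn for Ect2. Red diamonds are matches to TTTGAA, the only form of the cell cycle genes homology region searched, and grey squares are CCAAT boxes. Most red diamonds lie within 50 bases of the start, and most grey squares lie upstream of them.

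Of Cdk1 and the genes that switch it on, 3 overlapped between the groups and 0 passed. Both Brg1cKO libraries lay above both Control libraries for 2, which 26.3% of all genes tested showed. Of all 16557 genes tested, 9252 overlapped and 0.0302% were called. Cdk1 (ENSMUSG00000019942, chromosome 10, 69335146 to 69352938 in mm10), the kinase that drives entry into mitosis, had 177 and 157 CPM in Brg1cKO and 160.4 and 145 CPM in Control. The groups overlapped (log2 fold change 0.13 ± 0.20, SE; 95% interval -0.34 to 0.60). Ccnb1, a cyclin partner of Cdk1 in mitosis, had 76.1 and 63.6 CPM in Brg1cKO and 75.7 and 55.3 CPM in Control, which also overlap. Ccnb2, the other B-type cyclin, had 83.0 and 127 CPM in Brg1cKO and 57.0 and 79.1 CPM in Control. Both Brg1cKO libraries lay above both Control libraries, yet the replicates within each group differed by up to 1.53-fold, and the log2 fold change of 0.63 ± 0.34 (SE; 95% interval -0.17 to 1.43) did not pass (adjusted p = 0.558, edgeR). It was called without Control replicate 2 (0.86, adjusted p = 0.0153, edgeR), in a fit that called 16.9% of all genes, while the value was 0.41 without Control replicate 1 and 0.29 without Brg1cKO replicate 2. A processed pseudogene, Ccnb2-ps, took 88 and 8 reads in Brg1cKO and 140 and 0 in Control. Reads with more than 1 place in the genome are left out of the counts, so reads that fit both genes alike would be missing from both. Ccna2, the cyclin of S phase and G2, had 208 and 192 CPM in Brg1cKO and 171 and 139 CPM in Control, again without overlap and without passing (log2 fold change 0.37 ± 0.20, SE; adjusted p = 0.559, edgeR). It was called without Control replicate 1 (0.53, adjusted p = 0.0246, edgeR), in a fit that called 17.6% of all genes, and its value was 0.21 without Control replicate 2. Cdc25c, the phosphatase that frees Cdk1 from its inhibitory phosphates, was the lowest of these at 50.4 and 25.3 CPM in Brg1cKO and 24.2 and 41.5 CPM in Control, with a replicate ratio of 1.99 in Brg1cKO.

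Of the mitotic kinases and their checkpoint partner, 4 of 5 had a positive log2 fold change and 0 passed. Over all genes tested, 51.5% were positive and 0.0302% were called. Plk1 (chromosome 7, 122159439 to 122169873), which acts from centrosome maturation to cytokinesis, had 107 and 120 CPM in Brg1cKO and 69.2 and 91.2 CPM in Control. Its groups did not overlap, and the log2 fold change of 0.50 ± 0.28 (SE; 95% interval -0.16 to 1.16) did not pass (adjusted p = 0.572, edgeR), while without Control replicate 2 it was called at 0.70 (adjusted p = 0.0391) and without Control replicate 1 its value was 0.32. That fit without Control replicate 2 called 16.9% of all genes. Aurka, the spindle pole kinase, overlapped between the groups at 79.5 and 72.0 CPM in Brg1cKO and 56.8 and 72.7 CPM in Control. Ttk, the kinase that starts the spindle checkpoint, had 52.6 and 46.2 CPM in Brg1cKO and 46.1 and 25.1 CPM in Control, so the nearest libraries of the groups were almost level. Bub1b, a checkpoint protein that restrains the anaphase-promoting complex, had 197 and 197 CPM in Brg1cKO and 183 and 163 CPM in Control. Bub1, a checkpoint kinase at kinetochores, had a negative difference, with 132 and 83.7 CPM in Brg1cKO and 165 and 108 CPM in Control. Its replicates differed by more than the group means did, with a log2 fold change of -0.34 ± 0.33 (SE). Without Control replicate 2 it was called lower (-0.63, adjusted p = 0.0290, edgeR). Its value was 0.0057 without Control replicate 1 and -0.04 without Brg1cKO replicate 2.

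The chromosomal passenger complex corrects wrong attachments of chromosomes and later guides cytokinesis. Among all genes tested, 51.5% were positive, 48.5% were negative and 0.0302% were called. Of the 3 members of this complex here, 2 were positive, 1 was negative and 0 passed. Aurkb, its kinase, had 70.3 and 88.1 CPM in Brg1cKO and 64.1 and 45.8 CPM in Control, without overlap (log2 fold change 0.53 ± 0.35, SE; adjusted p = 0.658, edgeR). Birc5, also known as survivin, had 122 and 99.1 CPM in Brg1cKO and 124 and 70.8 CPM in Control. Cdca8, or borealin, had 124 and 84.8 CPM in Brg1cKO and 96.6 and 161 CPM in Control, with overlap and a log2 fold change of -0.30 ± 0.33 (SE). Without Control replicate 1, Cdca8 was called lower (-0.62, adjusted p = 0.0270, edgeR), in a fit that called 17.6% of all genes, and without Control replicate 2 its value was 0.09.

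At the kinetochore, the plate on each chromosome that holds spindle microtubules, 3 of 4 genes overlapped between the groups and 0 passed. Of all 16557 genes tested, 9252 overlapped and 0.0302% were called. Cenpf, a large protein of the outer kinetochore, had 271 and 264 CPM in Brg1cKO and 250.1 and 309 CPM in Control, and Cenpe, a kinesin that carries chromosomes to the spindle equator, had 258 and 284 CPM in Brg1cKO and 212 and 290 CPM in Control. Both genes overlapped between the groups, with log2 fold changes of -0.06 ± 0.17 and 0.11 ± 0.20 (SE). Ndc80 and Nuf2 code for partners in the rod that grips microtubules. Ndc80 had 59.1 and 71.2 CPM in Brg1cKO and 105 and 71.4 CPM in Control. It was the 1 member with both Brg1cKO libraries below both Control libraries, which 17.8% of all genes tested showed, and the nearest values were almost level (log2 fold change -0.44 ± 0.33, SE; adjusted p = 0.724, edgeR). Without Control replicate 2, the library nearer to Brg1cKO, it was called lower (-0.71, adjusted p = 0.0472, edgeR), in a fit that called 16.9% of all genes. Without Control replicate 1 the value was -0.13 (adjusted p = 0.791). Nuf2 had 64.3 and 60.5 CPM in Brg1cKO and 73.5 and 41.7 CPM in Control, which overlapped.

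Cdc20 and Ube2c work with the anaphase-promoting complex, the ubiquitin ligase that ends mitosis by destroying cyclin B and securin. Cdc20, its activator, had 108 and 129 CPM in Brg1cKO and 136 and 82.7 CPM in Control, so that both Brg1cKO libraries lay between the Control libraries. Ube2c, the ubiquitin-conjugating enzyme, had 125 and 134 CPM in Brg1cKO and 129 and 176 CPM in Control. Neither separated the groups, with 95% intervals of the log2 fold change from -0.60 to 0.84 and from -0.81 to 0.32.

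Hmmr stood out among the spindle genes and among all 30 members. It encodes a microtubule-binding protein needed for spindle assembly (ENSMUSG00000020330, chromosome 11, 40701395 to 40733422 on the minus strand). It had 121 and 109 CPM in Brg1cKO and 58.1 and 60.5 CPM in Control, from 3549 and 2818 reads and from 894 and 1140 reads. The groups were well apart and the replicates close, with ratios between replicates of 1.12 in Brg1cKO and 1.04 in Control. Its log2 fold change of 0.96 ± 0.28 (SE; 95% interval 0.31 to 1.60) had an unadjusted p of 0.00982 in edgeR, the only one of the 30 under 0.05. At that threshold, 7.66% of all genes tested were higher and 4.8% lower. After adjustment over all genes tested, Hmmr did not pass in edgeR's quasi-likelihood test (adjusted p = 0.348). DESeq2, which called 14.6% of all genes, gave it an adjusted p of 0.000152. Its value lay between 0.88 and 1.04 in all 16 other fits, with 0.93 without Control replicate 1 and 0.97 without Control replicate 2. Among the edgeR fits, Hmmr was called only in those with a lone Control library, where the spread is taken from the Brg1cKO libraries. These fits also called far more of all genes than the fit with all 4 libraries.

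The other spindle genes were close to level, apart from a gene with hardly any reads. Tpx2, which releases microtubule growth near chromosomes and activates Aurka, had 301 and 226 CPM in Brg1cKO and 248 and 274 CPM in Control. Nusap1, a protein that bundles spindle microtubules, had 72.4 and 78.9 CPM in Brg1cKO and 75.0 and 76.7 CPM in Control, with a log2 fold change of -0.00 ± 0.29 (SE). Ckap2l, a spindle protein, had 75.1 and 71.1 CPM in Brg1cKO and 63.3 and 72.7 CPM in Control. Kif11, the motor that pushes spindle poles apart and is needed to build a bipolar spindle, had only 25 and 25 reads in Brg1cKO and 2 and 7 reads in Control, or 0.854 and 0.964 CPM against 0.130 and 0.371 CPM in Control. Its log2 fold change of 1.83 has a 95% interval from -2.71 to 6.37. The GENCODE M21 annotation places no exon of another gene on those of Kif11, the annotation used for the counting is not given in the sources used here, and whether reads of this locus were left out of the counts was not tested.

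The 4 genes of cytokinesis all overlapped between the groups, and 2 of them differed widely between the Control libraries. Overlap was found for 9252 of the 16557 genes tested. Anln, a scaffold of the contractile ring, had 129 and 124 CPM in Brg1cKO and 60.6 and 125 CPM in Control. Ect2, the exchange factor that activates RhoA at the cleavage site, had 80.2 and 66.8 CPM in Brg1cKO and 28.9 and 75.2 CPM in Control. In both genes Control replicate 2 lay between the Brg1cKO libraries, and Control replicate 1 lay 2.07-fold and 2.60-fold lower than it. Without Control replicate 2 both were called higher, Anln at a log2 fold change of 1.04 and Ect2 at 1.33 (adjusted p = 0.000802 and 0.00224, edgeR), in a fit that called 16.9% of all genes. Without Control replicate 1 the values were 0.02 for Anln and -0.03 for Ect2. Kif23, the motor of the central spindle, had 142 and 159 CPM in Brg1cKO and 145 and 149 CPM in Control, and Kif20b, another kinesin of late mitosis, had 100.4 and 113 CPM in Brg1cKO and 83.9 and 139 CPM in Control.

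Mki67 and Top2a were the members with the most reads. Mki67 (chromosome 7, 135689784 to 135716361), which coats mitotic chromosomes and is the classic proliferation marker, had 962 and 799 CPM in Brg1cKO and 908 and 913 CPM in Control. The Control libraries lay between the Brg1cKO libraries, and the log2 fold change was -0.05 ± 0.12 (SE; 95% interval -0.33 to 0.23). Top2a (chromosome 11, 98992943 to 99024189), the topoisomerase that untangles chromosomes, had 683 and 657 CPM in Brg1cKO and 544 and 587 CPM in Control. It lay higher in both Brg1cKO libraries, with a log2 fold change of 0.24 ± 0.11 (SE), and did not pass (adjusted p = 0.459, edgeR). Only 74 of the 16557 genes tested had a higher mean CPM than Mki67.

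Across the 30 members, 9 had both Brg1cKO libraries above both Control libraries, 1 had both below, and 20 overlapped. Over all genes tested, 26.3% stood above in this sense, so the count of 9 is near the background, and 17.8% stood below. Overlap was found for 9252 of the 16557 genes tested. The 9 were Ccnb2, Ccna2, Plk1, Ttk, Bub1b, Aurkb, Kif11, Hmmr and Top2a. The 95% interval of the log2 fold change lay within 2-fold in either direction for 17 members and within 3-fold for 27, where 15.8% and 34.1% of all genes tested did. Within 1.5-fold it lay for 6. The median standard error was 0.31 over the members and 0.71 over all genes tested, many of which had far fewer reads. For the 17, among them Cdk1, Ccnb1, Ccna2, Aurka, Cdc20, Cenpf, Tpx2, Top2a and Mki67, a difference of 2-fold lies outside the interval. For the other 13 a 2-fold difference lies inside the interval, so equal levels are not shown for them.

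**Figure D3:**
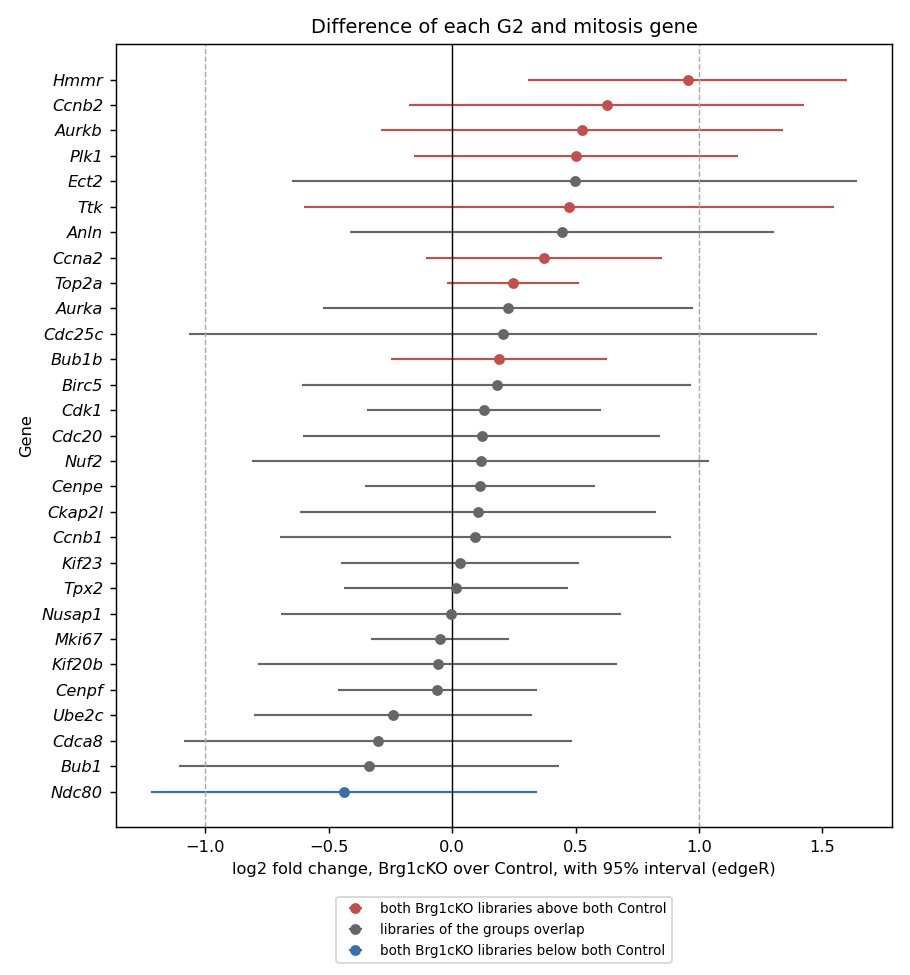
Log2 fold change of Brg1cKO over Control (horizontal) with its 95% interval from edgeR for each member other than Kif11 (vertical, ordered by value), with dashed lines at 2-fold. Colours show whether the libraries of the groups overlap. Hmmr at 0.96 is the only gene whose interval does not reach 0.

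The order of the members by mean level was similar in both groups. Divided by the length of all exons, Mki67 had the highest group means, with 95.6 and 79.4 CPM per kilobase in Brg1cKO and 90.2 and 90.7 CPM per kilobase in Control. Top2a had the next highest group means, with 75.8 and 72.9 CPM per kilobase in Brg1cKO and 60.4 and 65.2 CPM per kilobase in Control. Single libraries departed from this order, with Ccnb2 at 83.0 CPM per kilobase in Brg1cKO replicate 2, above both genes there, and Cdc20 at 72.7 CPM per kilobase in Control replicate 1, above Top2a. Mki67 and Top2a did not overlap each other in either group. By group means Cdc25c was next to last, above Kif11, with 10.3 and 5.14 CPM per kilobase in Brg1cKO and 4.93 and 8.43 CPM per kilobase in Control. Its libraries overlapped those of Nuf2 in both groups, so their order is within the spread. Spearman's rho between the mean levels per kilobase of the groups was 0.96 over 30 genes, which share libraries and gene lengths. Hmmr held place 17 in Brg1cKO and place 24 in Control, the largest shift among the 30.

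Replicates of the members lay closer in Brg1cKO than in Control. The higher library was under 1.5 times the lower for 27 members in Brg1cKO and for 19 in Control, and the median ratio was 1.12 in Brg1cKO and 1.37 in Control. The SD of the log2 ratio of replicates, with 0.5 CPM added, was 0.31 over the members in Brg1cKO and 0.57 in Control, and 0.90 and 1.65 over all genes tested. Gene reads were fewer in the Control libraries, and the part of depth in this was not tested.

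Other genes of G2 and mitosis were likewise not called. The 5 lists covered the spindle checkpoint, kinetochore and centromere, motors and spindle, the anaphase-promoting complex with separase and condensin, and G2 regulators. Together, 45 of 73 genes were positive and 28 negative, where 51.5% of all genes tested were positive, and the median was 0.14. EdgeR called 0 of the 73, where it called 0.0302% of all genes. At an unadjusted p under 0.05 stood 1 gene, where 7.66% of all genes were higher and 4.8% lower. That gene was Smc4, a condensin ATPase, at 438 and 396 CPM in Brg1cKO and 310.4 and 314 CPM in Control (log2 fold change 0.42 ± 0.14, SE; adjusted p = 0.368, edgeR). DESeq2 called 3 of the 73, 1 higher and 2 lower, or 4.11% against 14.6% of all genes, and voom called 0. Tacc3, a spindle protein, had 148 and 159 CPM in Brg1cKO and 97.1 and 117 CPM in Control, while Hjurp, the chaperone that loads the centromeric histone, had 369 and 374 CPM in Brg1cKO and 418 and 480.4 CPM in Control. Cdc25a, a phosphatase that activates cyclin-dependent kinases, had 125 and 146 CPM in Brg1cKO and 106 and 81.1 CPM in Control. Foxm1, the transcription factor of late cell cycle genes, named after its values were seen, had 146 and 172 CPM in Brg1cKO and 171 and 154 CPM in Control.

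Genes of S phase had a higher median than those of mitosis. Of 30, 20 were positive and 10 negative, where 51.5% of all genes tested were positive, and the median log2 fold change was 0.30. EdgeR called 0, where it called 0.0302% of all genes. An unadjusted p under 0.05 was found for 5, all in the higher direction, where 7.66% of all genes were higher at that threshold. DESeq2 called 5 of the 30, all higher, or 16.7% against 14.6% of all genes, and voom called 0. Mcm4, a subunit of the replicative helicase, had 286 and 346 CPM in Brg1cKO and 214 and 163 CPM in Control (log2 fold change 0.75 ± 0.20, SE; adjusted p = 0.322, edgeR). Ccne1, a cyclin of S phase entry, had 49.1 and 76.4 CPM in Brg1cKO and 27.3 and 21.9 CPM in Control. Ccne2, the other E-type cyclin, named after its values were seen, went the other way without passing (adjusted p = 0.733, edgeR). It had 16.5 and 22.8 CPM in Brg1cKO and 37.5 and 26.6 CPM in Control. Both Brg1cKO libraries lay above both Control libraries for 16 genes of this list and below for 3. Over all genes tested, 26.3% stood above and 17.8% below. The summed S phase level was 4002 and 4160 CPM in Brg1cKO and 3312 and 3392 CPM in Control, and its ratio to the summed G2 and mitosis level was 0.795 and 0.884 in Brg1cKO and 0.750 and 0.731 in Control. The difference between the lists was not tested.

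Among genes that hold back or start the cycle, edgeR called 0 of 28 tested, where it called 0.0302% of all genes. An unadjusted p under 0.05 was found for 3, where 7.66% of all genes were higher and 4.8% lower. DESeq2 called 3 of the 28, or 10.7% against 14.6% of all genes, and voom called 0. In the list of inhibitors and repressors, 8 were positive and 8 negative, with a median of -0.04. Cdkn1c, an inhibitor of cyclin-dependent kinases, had 437 and 470.3 CPM in Brg1cKO and 338 and 320 CPM in Control, and Ccng2, a cyclin of arrested cells, had 83.9 and 54.6 CPM in Brg1cKO and 132 and 112 CPM in Control. Neither passed (adjusted p = 0.353 and 0.368, edgeR). Of G1 cyclins, kinases and E2F genes, 5 were positive and 7 negative, with a median of -0.07. Mycn, a transcription factor that drives growth, averaged 65.2 ± 14.5 CPM in Brg1cKO and 114 ± 32.9 CPM in Control (SD, n = 2 each; adjusted p = 0.385, edgeR).

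**Figure D4:**
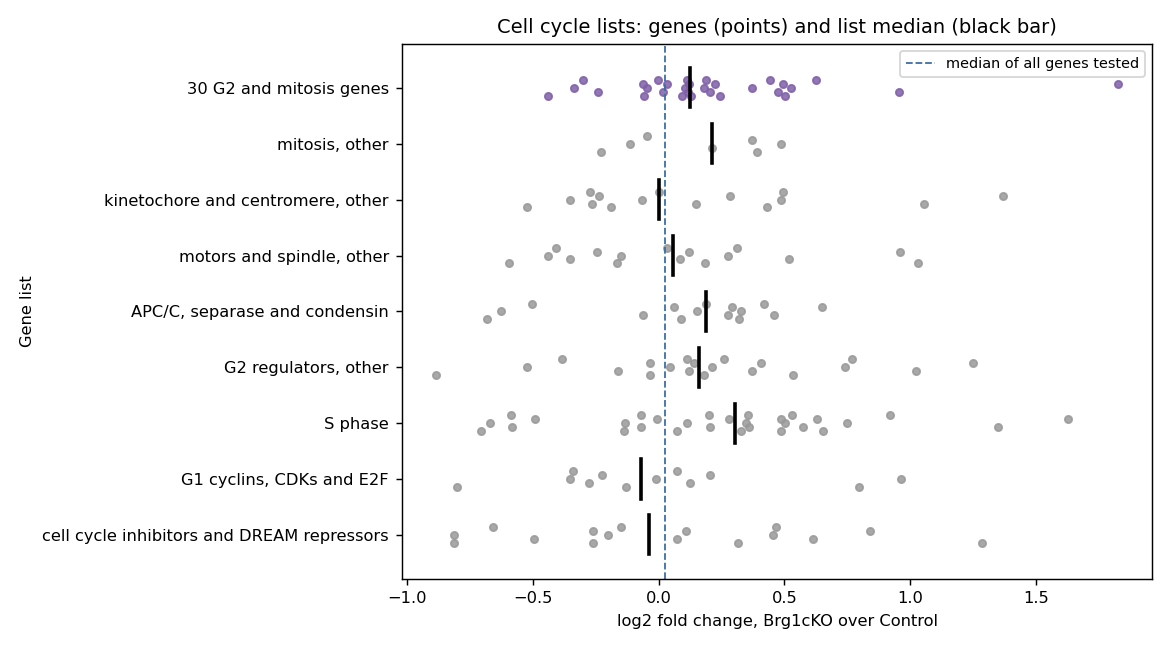
Log2 fold change of Brg1cKO over Control (horizontal) of every tested gene of 9 cell cycle lists (vertical), with the list median as a black bar and the median of all genes tested as a dashed line. The G2 and mitosis genes centre at 0.12, the S phase genes at 0.30 and the inhibitors and repressors at -0.04.

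The summed level of the G2 and mitosis genes differed less between the groups, as a ratio of group means, than the summed markers of each of the 7 cell types checked. The lists were written with earlier results of these data known, so this order is a description and not a test. Mki67 and Top2a together gave 1645 and 1456 CPM of the member sum in Brg1cKO and 1452 and 1500 CPM in Control. White blood cell markers summed to 1336 and 1271 CPM in Brg1cKO and 295 and 351 CPM in Control, with 8 of 8 positive. Neuroblast markers summed to 363 and 347 CPM in Brg1cKO and 1118 and 1223 CPM in Control, with 8 of 8 negative. Cardiac and skeletal muscle markers summed to 438 and 422 CPM in Brg1cKO and 51.6 and 97.9 CPM in Control, and red blood cell markers to 221 and 204 CPM against 619 and 648 CPM in Control. Within the muscle list 5 of the 6 genes tested were positive, and Myod1 went the other way. Myod1 had 0 and 0.154 CPM in Brg1cKO and 1.23 and 26.9 CPM in Control. Myog, which was not tested, was at 0 in 3 of the 4 libraries and had reads in Control replicate 2 only. Endothelial markers summed to 2249.8 and 2239 CPM in Brg1cKO and 1973 and 1730 CPM in Control, with 4 positive and 1 negative. Head mesenchyme markers summed to 2257 and 2255 CPM against 2757 and 2949 CPM in Control, with 2 positive and 3 negative. The level of the members in each cell type cannot be read from these sums, and the part of the cell mix in the members' levels was not tested.

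**Figure D5:**
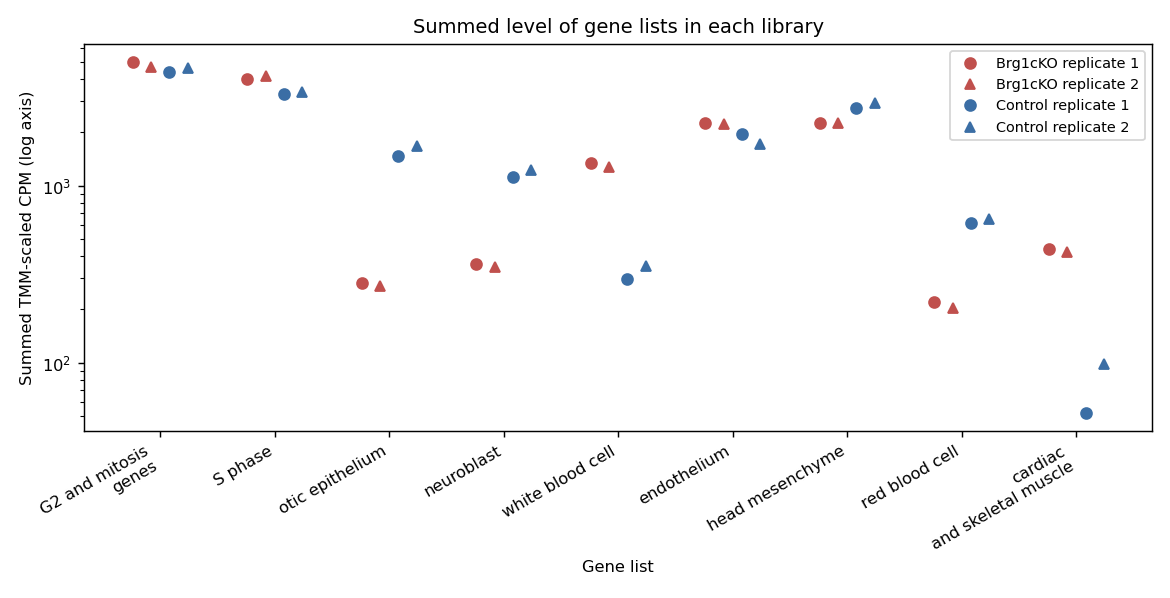
Summed TMM-scaled CPM on a log axis (vertical) of the G2 and mitosis genes, the S phase genes and 7 lists of cell type markers (horizontal) in the 4 libraries, with Brg1cKO in red and Control in blue. The G2 and mitosis genes lie between 4414 and 5034 CPM in all 4 libraries, while otic, neuroblast, white blood cell, red blood cell and muscle markers lie far apart between the groups.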

How the data were processed

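The deposited files hold raw counts, 1 whole number for each Ensembl gene and library, not normalized. Per the labels' protocols, libraries were random-primed and strand-specific, with single-end reads of 75 bp. HISAT2, HTSeq, DESeq2 and mm10 are named, with no role or version, in the submitters' processing notes. Neither the annotation nor the strand setting of the counting is stated in those sources. Lines that name no gene, 36.0% to 36.3% of records in Brg1cKO and 50.7% to 51.8% in Control, were left out. Symbols came from GENCODE M21, and promoters from RefSeq. Genes were kept by filterByExpr (minimum count 10), scaled by TMM and tested in edgeR 4.0.16 (R 4.3.3) with robust quasi-likelihood, group as the only term, all 4 libraries, and Benjamini-Hochberg adjustment over all 16557 genes. The fit was tested on simulated data. Alternatives used DESeq2 1.42.0, limma 3.58.1, other scalings, filters and moderation, equal depth, a replicate block and each library left out. Members, lists and tests were chosen with earlier results of these data known. All members could be named, with up to 4 genes of smallest p per other list and the 3 highest of cell type lists. Fbxo2, Pax8, Myog, Sox2, Foxm1 and Ccne2 fall outside this rule and were named after their values were seen. Of the members, 8 share exon bases with a gene on the opposite strand (Ccna2, Cdc25c, Plk1, Cdca8, Cdc20, Ube2c, Nusap1 and Ckap2l), so their counts are uncertain if strand was ignored. Intervals cover the spread between libraries.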

Additional observations from a re-analysis of the deposited data

Results flagged for a closer look

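Reads left out of the gene counts were divided differently in the groups. Reads that did not align made up 9.54% and 9.41% of records in Brg1cKO and 20.9% and 19.1% in Control, and those in no annotated feature 14.5% and 15.0% in Brg1cKO and 21.04% and 21.6% in Control. The smaller classes went the opposite way. Those that fitted more than 1 gene made up 2.98% of records on average in Brg1cKO and 2.22% in Control, and the lower Brg1cKO library (2.95%) lay above the higher Control library (2.23%). Those with more than 1 place in the genome averaged 8.98% in Brg1cKO and 7.70% in Control, and here too the lower Brg1cKO library (8.95%) lay above the higher Control library (7.76%). None of these reads is in the counts of the members, and their part in the members' levels was not tested.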

How the results depend on the processing

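The number of genes called depended on the tool as well as on the 2 libraries a group. Over all genes the count of 5 called became 417 with no low-count filter, 10 with a minimum count of 50, 2422 with DESeq2 (1379 higher and 1043 lower, against 2 and 3), 54 with voom, 70 with the newer moderation, 38 at an adjusted p under 0.10, and 33 to 3519 with a library left out. Members called became 1 with DESeq2 and 0 to 7 with a library left out, 3 without Control replicate 1 (17.6% of all genes called) and 7 without Control replicate 2 (16.9%). With a lone library in a group, its spread is taken from the other group. The members' median was 0.0405 to 0.216 with a library left out, and 0.09 to 0.17 otherwise. The replicate block gave 140 calls and 0 members, and the same-numbered libraries deviated with a correlation of 0.01, so no pairing is shown.

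Of 30 members, 15 kept their direction in every other fit that tested them, 16 fits for each but Kif11, which a minimum count of 50 left out. Values that changed sign were Tpx2 at -0.0199 with RLE scaling and with DESeq2 and -0.0032 thinned to equal depth, Kif23 at -0.0056 with RLE scaling and -0.0057 with DESeq2, and Nusap1 at 0.0362 with upper quartile scaling, 0.0035 with no scaling and 0.0011 without mitochondrial, ribosomal protein and haemoglobin genes. With a library left out, log2 fold changes ran from -0.19 to 0.22 for Tpx2, -0.0436 to 0.12 for Kif23, -0.0607 to 0.0676 for Nusap1, -0.37 to 0.63 for Cdc25c, -0.70 to 0.0057 for Bub1, -0.0905 to 0.33 for Cenpe, -0.0293 to 1.33 for Ect2, -0.13 to 0.34 for Ccnb1, -0.19 to 0.65 for Birc5, -0.62 to 0.0942 for Cdca8, -0.20 to 0.0800 for Cenpf, -0.26 to 0.59 for Nuf2, -0.21 to 0.53 for Cdc20, -0.37 to 0.33 for Kif20b and -0.18 to 0.0863 for Mki67. The cause was not tested.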
